A study of Mus musculus with 12 samples.

Results

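CC chemokines are small secreted proteins that draw leukocytes along a gradient by binding G protein-coupled receptors of the Ccr family, and they carry 2 adjacent cysteines near the amino terminus. In joints they are made by chondrocytes, synovial fibroblasts and macrophages, and interleukin-1, which activates NF-κB, is a well known inducer of many of them. Retinoic acid, a vitamin A metabolite, acts through nuclear receptors and, like IL-1α, drives aggrecan loss from cartilage explants. The CC chemokines Ccl2, Ccl3, Ccl4, Ccl5, Ccl7, Ccl8, Ccl9, Ccl11, Ccl19 and Ccl20 were described here by every probe that carries 1 of these 10 symbols. Of the 10 genes, 8 had a probe, with 9 probes in all, and 6 genes with 7 probes were detected on enough arrays to be tested, among 18200 probes tested of 46632 on the array. Ccl8 and Ccl19 were matched to no probe under these symbols and were not analysed here.

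Femoral head cartilage was taken from TS-4/5∆cat mice at 21 days of age and kept in culture for 3 days untreated, with 10 ng/mL recombinant human IL-1α or with 10 µM retinoic acid, and its RNA was hybridised to 12 Illumina bead arrays, 4 per treatment. All 3 groups carried in-frame deletions of the catalytic domains of both ADAMTS-4 and ADAMTS-5, so no array came from a mouse with these enzymes intact. Each treatment had 2 arrays from the Donut line, which formed batch 1, and 2 from the Gertrude line, which formed batch 2, so that line and batch cannot be told apart. The labels put 4 hips in a well and describe culture in serum before treatment, the paper describes serum-free culture of 3 unpooled mice per treatment, and p-values measure the spread between these arrays whatever their source.

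Intensities were background-corrected, quantile-normalized and put on a log2 scale with an offset of 16, so that 1 unit is a 2-fold difference except near the background, where folds are understated. Values on this scale are comparable between arrays for 1 probe and not between probes. The number of probes detected at a detection p under 0.05 was between 13786 and 14965 in batch 1 and between 16732 and 19485 in batch 2, and the lowest detected signal of an array lay between 4.86 and 5.48. Arrays of the same treatment and batch correlated at 0.983 to 0.995 over the tested probes, and those that shared a treatment but not a batch at 0.868 to 0.902, so the values of the members are given by array or within each batch. The cartilage markers Acan, Col2a1, Col9a1, Comp, Matn1 and Sox9 were detected on all 12 arrays, Col11a1 on 11 and Hapln1 on 10, the exceptions being retinoic acid arrays of batch 1, and Matn3 was detected on 0. As checks of the treatments, Nos2, a target of IL-1, was raised at least 14.1-fold over untreated cartilage by IL-1α, and Cyp26a1, a target of retinoic acid, at least 19.2-fold by retinoic acid. Each was detected with that treatment alone and passed the detection filter through it. Of the IL-1 checks Nos2, Lcn2, Saa3 and Il6, 3 were tested, and IL-1α raised 2, where 15.2% of all tested probes were higher. Retinoic acid raised all 4 of its checks, Cyp26a1, Cyp26b1, Rarb and Dhrs3, where 18.2% were higher.

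In the RefSeq order of genes on GRCm38.p6, Ccl2, Ccl7 and Ccl11 follow each other on chromosome 11, with Ccl12 between Ccl11 and Ccl8. After 26 further coding genes, Ccl5, Ccl9, Ccl6, Ccl3 and Ccl4 follow each other on the same chromosome, while Ccl20 lies on chromosome 1 and Ccl19 on chromosome 4. RefSeq promoters, running from 250 bases before the start of the gene to 50 after it, were at hand for 5 of the 10 members. Those of Ccl3 and Ccl9 are shown because these are the tested members with a promoter, and they differed in their response. Ccl3 rose with both treatments, and Ccl9 passed the test against untreated cartilage with neither. Both are written 5′ to 3′ on the strand of the gene, the minus strand of GRCm38.p6, at chr11:83649329-83649628 for Ccl3 and at chr11:83578587-83578886 for Ccl9, and capitals mark a match to the NF-κB (κB) consensus.
Ccl3: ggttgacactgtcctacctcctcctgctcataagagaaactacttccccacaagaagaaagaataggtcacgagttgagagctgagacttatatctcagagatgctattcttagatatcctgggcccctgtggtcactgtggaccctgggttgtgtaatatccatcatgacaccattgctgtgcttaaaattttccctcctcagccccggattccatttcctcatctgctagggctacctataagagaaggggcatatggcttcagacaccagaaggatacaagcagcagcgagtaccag
Ccl9: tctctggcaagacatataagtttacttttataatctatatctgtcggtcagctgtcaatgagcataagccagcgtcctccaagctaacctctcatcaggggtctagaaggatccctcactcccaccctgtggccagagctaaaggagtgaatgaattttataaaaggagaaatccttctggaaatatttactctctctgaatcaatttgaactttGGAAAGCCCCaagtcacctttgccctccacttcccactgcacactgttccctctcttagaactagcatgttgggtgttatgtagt

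The promoters were searched on both strands for the κB consensus, the AP-1 site TGACTCA, the C/EBP letters TTGCNNAA and the direct repeat 5 element of retinoic acid receptors. The Ccl9 window held 1 κB match, GGAAAGCCCC, that begins 35 bases before the start and reads as the consensus on the opposite strand. The Ccl3 window held a match to none of the 4 motifs. The Ccl20 window held 1 κB match, GGAAAACCCC, that begins 80 bases before the start, also on the opposite strand. Of 32851 mouse promoters of the same length, 8.46% held a κB match, 5.2% the AP-1 site, 10.8% the C/EBP letters and 0.0974% the direct repeat 5 element. These matches describe the letters of the windows and not binding.

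IL-1α raised 6 of the 7 tested CC chemokine probes over untreated cartilage and lowered 0, where 15.2% of all 18200 tested probes were higher and 14.1% were lower at an adjusted p under 0.05. Retinoic acid raised 3 of the 7, both probes of Ccl4 and the probe of Ccl3, and lowered those of Ccl2 and Ccl7, where 18.2% of all tested probes were higher and 17.1% were lower. Between the treatments, retinoic acid was below IL-1α for Ccl2, Ccl5 and Ccl7 and above it for Ccl9, where 15.2% of all tested probes were higher with retinoic acid and 15.8% were lower. The median log2 change over the 7 probes was 1.44 for IL-1α against untreated and 0.30 for retinoic acid against untreated, and over all tested probes both medians were 0.02. A probe detected with 1 treatment passes the detection filter through that treatment, as Ccl5 did with IL-1α. The Ccl4 probe ILMN_1224472, counted as raised by both treatments, passed it through treated arrays alone. These counts therefore describe the tested probes and not all 10 members. The 3 comparisons share arrays, those against untreated cartilage the 4 untreated ones, and are therefore not independent of each other.

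**Figure D1:**
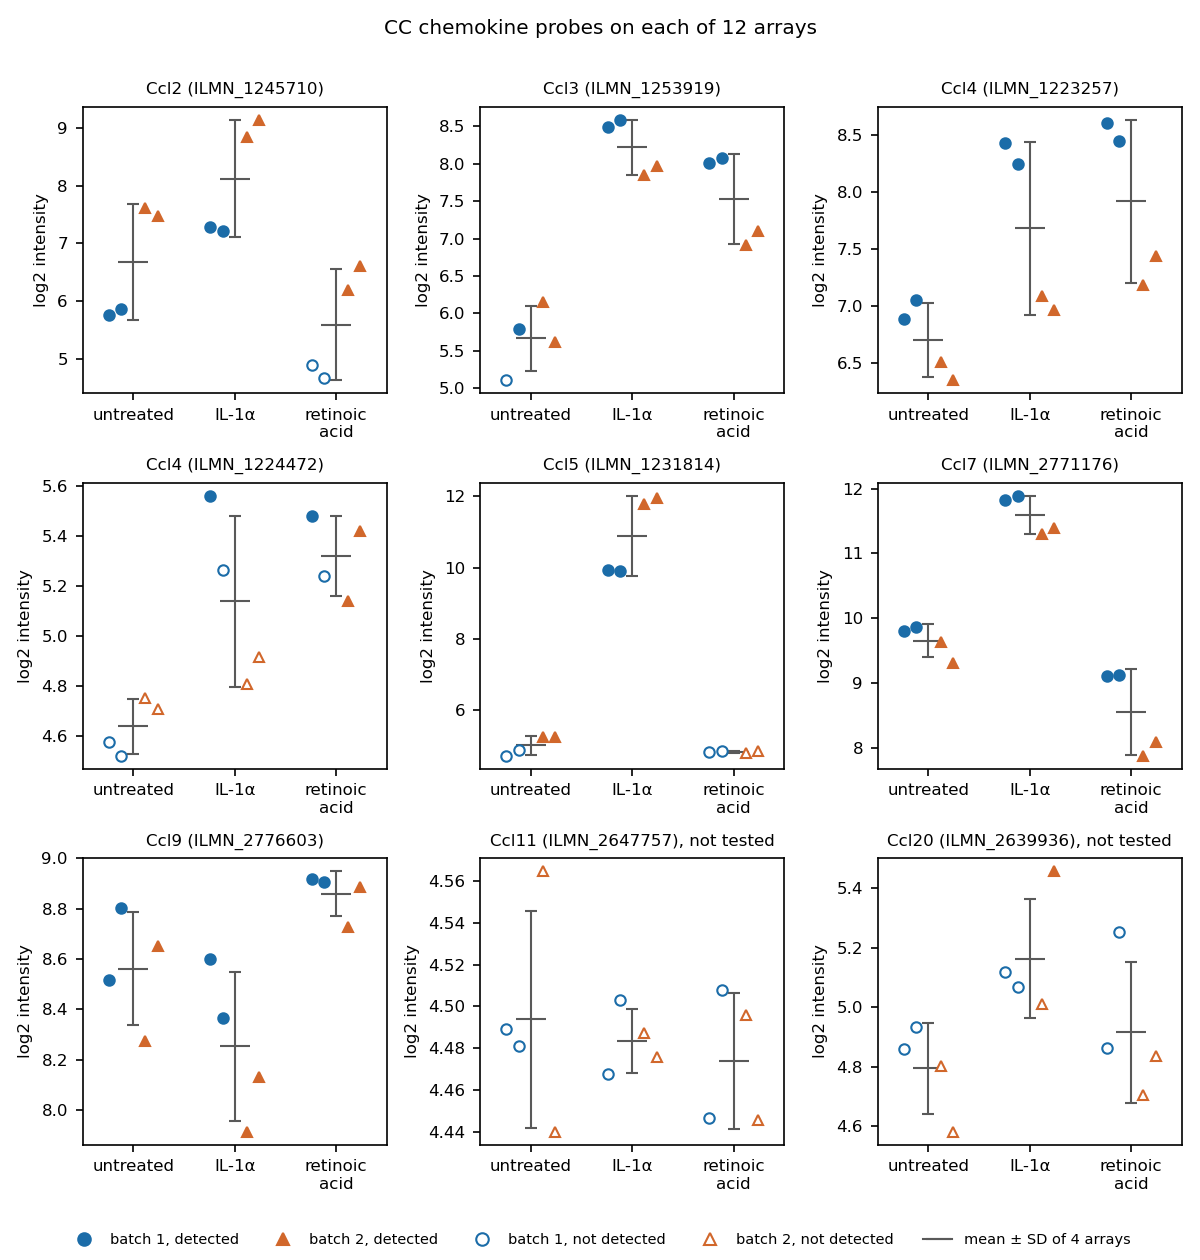
Normalized log2 intensity of the 9 probes for CC chemokines on each of 12 arrays, by treatment, with circles for batch 1, triangles for batch 2, open symbols where the probe was not detected, and bars for the mean ± SD of 4 arrays. Ccl5 stands between 9.90 and 11.96 on the IL-1α arrays and at 5.26 or lower on the other 8, and each panel has its own vertical axis, which does not start at 0.

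The monocyte chemoattractants Ccl2 and Ccl7 took the same order under the 3 treatments, with IL-1α highest, untreated cartilage between and retinoic acid lowest. Ccl2 (MCP-1) is a ligand of Ccr2 that recruits monocytes. Its log2 intensity was 5.76, 5.87, 7.61 and 7.48 on the untreated arrays, with the 2 arrays of batch 1 given before the 2 of batch 2 here and throughout. It was 7.29, 7.21, 8.84 and 9.14 with IL-1α. With retinoic acid it was 4.91, 4.67, 6.20 and 6.62, and it was not detected on the batch 1 arrays. All 3 groups stood 1.62 to 1.73 higher in batch 2 than in batch 1, so that the untreated arrays overlapped with both treatments across the batches, although no 2 treatments overlapped within a batch.

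With batch and replicate in the limma model, Ccl2 was 2.71-fold higher with IL-1α than in untreated cartilage (log2 change 1.44, SE 0.12, n = 4 arrays each, limma adjusted p = 3.16e-06). The rise was 1.44 in batch 1 and 1.44 in batch 2. Ccl2 fell by 1.08 on the log2 scale with retinoic acid (SE 0.12, limma adjusted p = 1.77e-05), by 1.03 in batch 1 and by 1.13 in batch 2. In batch 1 the fall is a bound of at least 1.38-fold, since the probe was not detected there. Between the treatments, the log2 change of retinoic acid against IL-1α was -2.52 (SE 0.12, limma adjusted p = 9.11e-09), with no overlap of the 8 arrays. It stood for at least a 3.74-fold lower level in batch 1, again a bound, and for a 5.98-fold lower level in batch 2. The calls against untreated cartilage rest on the batch term, and a model without terms for batch and replicate gave adjusted p-values of 0.247 for IL-1α and 0.383 for retinoic acid.

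Ccl7 (MCP-3), which also binds Ccr2, was detected on all 12 arrays. Its log2 intensity was 9.81, 9.87, 9.63 and 9.31 in untreated cartilage and 11.82, 11.88, 11.31 and 11.39 under IL-1α. Under retinoic acid it was 9.11, 9.13, 7.88 and 8.09, so that the 3 groups did not overlap even across the batches. The means were 9.66 ± 0.25 untreated, 11.60 ± 0.29 with IL-1α and 8.55 ± 0.66 with retinoic acid (SD, n = 4). Ccl7 was 3.84-fold higher with IL-1α than untreated (log2 change 1.94, SE 0.16, limma adjusted p = 2.68e-06). With retinoic acid it was 2.15-fold lower than untreated (log2 change -1.10, SE 0.16, limma adjusted p = 1.57e-04) and 8.26-fold lower than with IL-1α (log2 change -3.05, SE 0.16, limma adjusted p = 1.74e-08). The exact two-sided permutation test gave p = 0.0286 for each of these 3 comparisons of 4 arrays against 4, the smallest value it can give.

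The macrophage inflammatory proteins Ccl3 and Ccl4 were higher than in untreated cartilage with both treatments. Ccl3 (MIP-1α), a ligand of Ccr1, attracts monocytes and other leukocytes. Its untreated levels were 5.11, 5.79, 6.16 and 5.62, the first of them not detected. IL-1α gave 8.49, 8.58, 7.85 and 7.97, and retinoic acid gave 8.02, 8.08, 6.92 and 7.10, so that every treated array stood above every untreated one. Against untreated cartilage, Ccl3 was 5.87-fold higher with IL-1α (log2 change 2.55, SE 0.26, limma adjusted p = 1.38e-05) and 3.63-fold higher with retinoic acid (log2 change 1.86, SE 0.26, limma adjusted p = 9.72e-05). Between the treatments the log2 difference of retinoic acid from IL-1α was -0.69 (95% confidence interval -1.25 to -0.13), which did not pass the test after adjustment (limma adjusted p = 0.0584). This last value crossed the threshold in several other settings, among them a model without the replicate number, with an adjusted p of 0.0394.

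Ccl4 (MIP-1β), which is close to Ccl3 in sequence, was measured by 2 probes. The brighter probe, ILMN_1223257, read 6.89, 7.05, 6.51 and 6.35 on the untreated arrays. It read 8.43, 8.24, 7.09 and 6.97 with IL-1α and 8.61, 8.45, 7.18 and 7.44 with retinoic acid. The treated arrays of batch 1 stood apart from the others, and 1 IL-1α array of batch 2 lay below an untreated array of batch 1, whereas no treated array overlapped with the untreated ones of its own batch. The log2 change was 0.98 with IL-1α (SE 0.17, limma adjusted p = 8.17e-04) and 1.22 with retinoic acid (SE 0.17, limma adjusted p = 8.34e-05). Without terms for batch and replicate these adjusted p-values were 0.223 and 0.0832. Between the treatments the difference of retinoic acid from IL-1α was 0.24 (95% confidence interval -0.12 to 0.60, limma adjusted p = 0.319).

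The dimmer Ccl4 probe, ILMN_1224472, was detected on 0 untreated arrays, 1 IL-1α array and 3 retinoic acid arrays. It thus passed the detection filter only through treated arrays, where it was higher, which limits what its p-values can show. Its log2 intensity was 4.57, 4.52, 4.75 and 4.71 untreated, 5.56, 5.26, 4.81 and 4.92 with IL-1α, and 5.48, 5.24, 5.14 and 5.42 with retinoic acid. The signal of untreated cartilage being a bound, Ccl4 was at least 1.15-fold higher with retinoic acid by this probe (limma adjusted p = 0.00333), and the bound for IL-1α was a 1.01-fold rise (limma adjusted p = 0.0253). The IL-1α value is the weakest call among the members, since its log2 change was 0.87 in batch 1 and 0.13 in batch 2 and the call was lost without any 1 of the 4 untreated and IL-1α arrays of batch 1, with adjusted p-values of 0.0883 to 0.109. The 2 probes had the same direction in both comparisons with untreated cartilage.

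**Figure D2:**
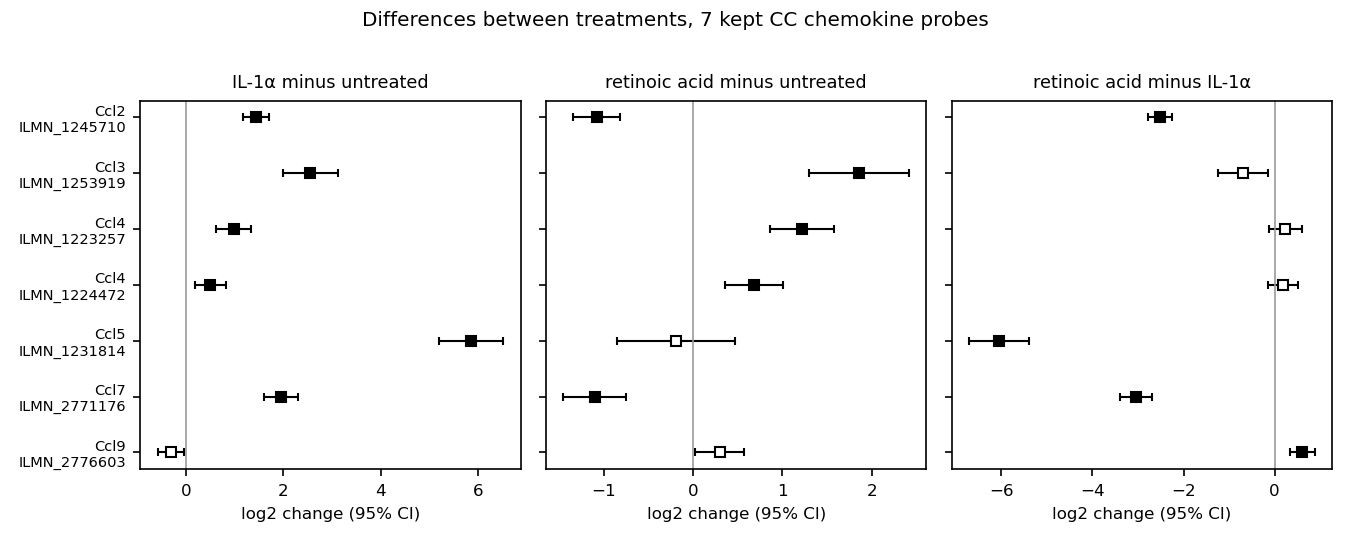
Log2 change of the 7 tested probes in the 3 comparisons, with 95% confidence intervals from limma, filled squares for an adjusted p under 0.05 over all 18200 tested probes and open squares otherwise. Ccl2 and Ccl7 stand on opposite sides of 0 in the comparisons of IL-1α and of retinoic acid with untreated cartilage, and the values of Ccl5 and of the Ccl4 probe ILMN_1224472 include groups that were not detected.

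Ccl5 (RANTES), which draws T cells and monocytes through receptors that include Ccr1 and Ccr3, had the largest change with IL-1α of the tested members. IL-1α gave log2 intensities of 9.93, 9.90, 11.78 and 11.96. Untreated cartilage gave 4.73, 4.88, 5.26 and 5.24, detected in batch 2 and not in batch 1. Retinoic acid gave 4.83, 4.86, 4.81 and 4.86, and the probe was detected on 0 of these 4 arrays. Before normalization the raw intensity of the probe was 707.8 to 4316.2 on the IL-1α arrays and 38.5 to 73.2 on the retinoic acid arrays.

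The fitted log2 change of Ccl5 with IL-1α was 5.86 (SE 0.31, n = 4 arrays each, limma adjusted p = 5.93e-08). It corresponds to at least a 24.7-fold rise in batch 1, where the untreated arrays were not above background, and to a rise of 6.61 on the log2 scale in batch 2, where all 4 arrays of the comparison were. Over both batches the level under IL-1α exceeded that under retinoic acid by at least 52.1-fold (limma adjusted p = 1.11e-08), at least 23.7-fold in batch 1 and at least 114-fold in batch 2. Retinoic acid differed from untreated cartilage by -0.19 (95% confidence interval -0.85 to 0.47, limma adjusted p = 0.674). In batch 2, where untreated cartilage was just above background, it was at least 1.17-fold above retinoic acid.

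Ccl9 (MIP-1γ), a Ccr1 ligand made by macrophages and osteoclasts, was detected on all 12 arrays and moved little. It stood at 8.52, 8.80, 8.27 and 8.65 untreated, at 8.60, 8.37, 7.91 and 8.13 under IL-1α, and at 8.92, 8.91, 8.73 and 8.89 under retinoic acid. IL-1α overlapped with untreated cartilage, and its log2 difference of -0.31 did not pass the test (95% confidence interval -0.58 to -0.03, limma adjusted p = 0.0849), although it did without batch 1 replicate 1 of IL-1α, at -0.42 (adjusted p = 0.0363). Retinoic acid differed from untreated cartilage by 0.30 (95% confidence interval 0.02 to 0.57, limma adjusted p = 0.0881). All 4 retinoic acid arrays stood above all 4 IL-1α arrays, and this difference of 0.61 on the log2 scale, 1.52-fold, was called (SE 0.13, limma adjusted p = 0.00255). Its direction is opposite to that of Ccl2, Ccl5 and Ccl7 in the same comparison.

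Ccl11 (eotaxin), a Ccr3 ligand that attracts eosinophils, was detected on 0 of 12 arrays, with log2 intensities from 4.44 to 4.56. Ccl20 (MIP-3α), the ligand of Ccr6, was detected on 1 array, batch 2 replicate 2 of IL-1α, at 5.46. Its other 11 arrays lay between 4.58 and 5.25. Neither was tested.

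Differences between the batches were called for 2 members, Ccl5 and Ccl3. For IL-1α against untreated, 1 of the 7 probes, Ccl5, differed between the batches, where 4.82% of all tested probes did so at an adjusted p under 0.05, and for retinoic acid against IL-1α it was again Ccl5, where 8.76% did. The Ccl5 differences rest on groups at background, which fix no size, but the IL-1α arrays alone were 1.95 higher on the log2 scale in batch 2 than in batch 1. For retinoic acid against untreated, 1 of the 7, Ccl3, differed, where 2.86% of all tested probes did. With retinoic acid the rise of Ccl3 was 2.60 in batch 1 but 1.12 in batch 2, and this difference of -1.48 (95% confidence interval -2.12 to -0.84, limma adjusted p = 0.0134) includes 1 untreated array of batch 1 that was not detected. It was not called without that array, without batch 1 replicate 2 of retinoic acid or without batch 2 replicate 1 of retinoic acid. Ccl4 and Ccl7 also had unequal sizes, such as falls of Ccl7 by 0.72 and by 1.49 with retinoic acid in batches 1 and 2, but these differences did not pass the test (limma adjusted p = 0.0725 for Ccl7).

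**Figure D3:**
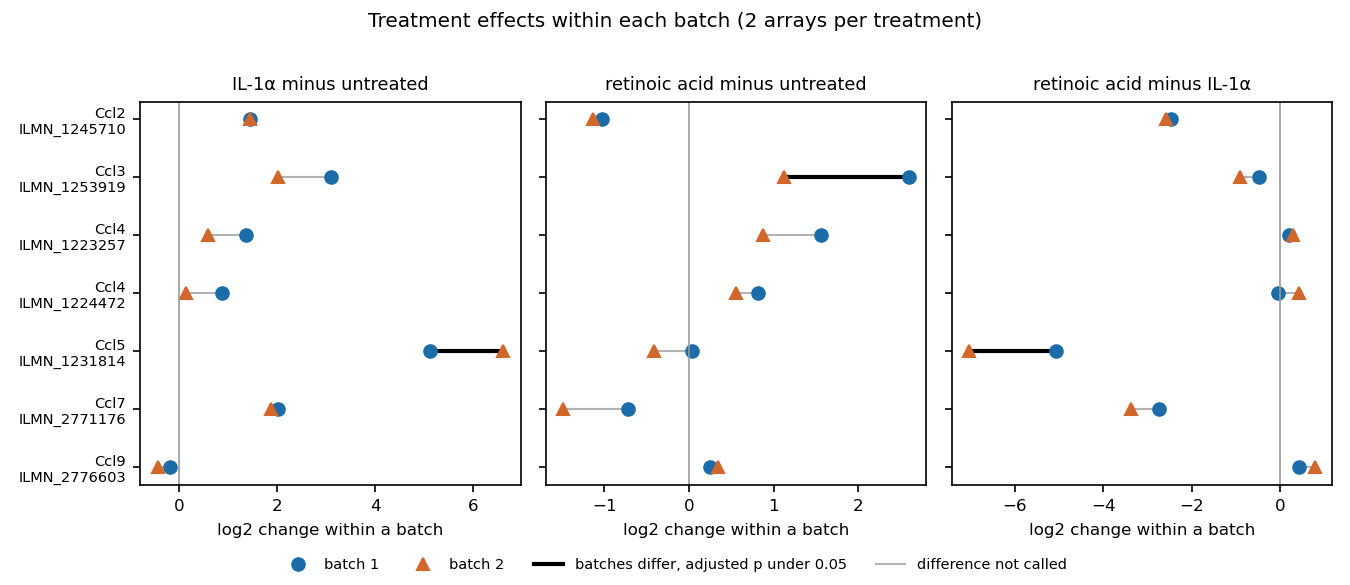
Log2 change of the 7 tested probes within batch 1 (circles, Donut line) and batch 2 (triangles, Gertrude line), 2 arrays per treatment in each, with a thick line where the batches differed at an adjusted p under 0.05. The values of Ccl2 for IL-1α lie on each other at 1.44, and those of Ccl3 for retinoic acid stand apart at 2.60 and 1.12.

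Among the other CC chemokines, 9 had a probe and 4 were tested, Ccl6, Ccl24, Ccl25 and Ccl27. IL-1α raised 1 of the 4, Ccl25, by 0.40 (limma adjusted p = 0.028), where 15.2% of all tested probes were higher. Retinoic acid raised Ccl6 and Ccl24, where 18.2% of all tested probes were higher. Both were also above their level with IL-1α, where 15.2% of all tested probes were higher with retinoic acid. With 4 genes these counts are too few to set the ligands apart from all tested probes. Ccl24 (eotaxin-2), a Ccr3 ligand, read 7.51, 7.37, 8.29 and 8.44 with retinoic acid and was detected on none of the other 8 arrays. It was at least 6.89-fold higher than in untreated cartilage (limma adjusted p = 2.53e-08) and at least 6.29-fold higher than with IL-1α (limma adjusted p = 2.05e-08). Ccl24 passed the detection filter through the retinoic acid arrays alone, so these p-values describe a probe selected for being high there. Its rise differed between the batches over untreated (limma adjusted p = 0.0142) and over IL-1α (limma adjusted p = 0.00862). Both differences rest on groups at background, which fix no size. Ccl6, a Ccr1 ligand whose gene lies between Ccl9 and Ccl3, read 6.82, 6.78, 6.71 and 7.15 untreated, 7.41, 7.37, 7.11 and 7.26 with IL-1α, and 7.69, 7.78, 8.47 and 8.52 with retinoic acid. Its rise with retinoic acid was 1.25 over untreated (limma adjusted p = 1.03e-04) and 0.83 over IL-1α (limma adjusted p = 0.0027), with no overlap of the arrays, and the latter was 0.35 in batch 1 and 1.31 in batch 2 (limma adjusted p = 0.0152 for the difference). Ccl1, Ccl21b, Ccl22 and Ccl28 were detected on no array.

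Of 14 receptors, scavengers and decoys with a probe, 5 were tested. Ccr2, the receptor of Ccl2 and Ccl7, Ccr3 and Ccr6 were detected on 0 of 12 arrays, as were Ccr4, Ccr8, Ccr9, Ccr10 and Darc. Ccr1, shared by Ccl3, Ccl5, Ccl6 and Ccl9, was detected on 11 arrays, with means of 5.45 ± 0.53 untreated, 5.68 ± 0.23 with IL-1α and 5.50 ± 0.30 with retinoic acid (SD, n = 4), and was called in 0 of the 3 comparisons. Ccr7, the receptor of Ccl19, rose by 0.68 with IL-1α (limma adjusted p = 0.0115), by 1.10 in batch 1 and by 0.27 in batch 2.

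Ccbp2, the scavenger also named Ackr2 or D6 that takes up and degrades inflammatory CC chemokines, was detected on all 12 arrays. It read 7.61, 7.76, 7.26 and 6.79 untreated, 8.59, 8.47, 8.09 and 8.12 with IL-1α, and 7.42, 7.45, 6.63 and 6.47 with retinoic acid. All 4 IL-1α arrays stood above the other 8, and Ccbp2 was 1.95-fold higher with IL-1α than untreated (log2 change 0.96, SE 0.13, limma adjusted p = 1.76e-04). It was lower with retinoic acid than with IL-1α (log2 change -1.32, SE 0.13, limma adjusted p = 6.05e-06). Ccrl2, an atypical receptor that binds chemerin, fell by 1.07 with retinoic acid against untreated (limma adjusted p = 3.47e-04) and by 1.36 against IL-1α (limma adjusted p = 5.18e-05). Against untreated its log2 change was -0.60 in batch 1 and -1.55 in batch 2, a difference between the batches that was called (limma adjusted p = 0.022). Ccrl1, the scavenger also named Ackr4, was detected on the 6 arrays of batch 2 and on 0 of batch 1, and was called in 0 of the 3 comparisons. Over the 5 tested, IL-1α raised 2 and lowered 0 against untreated, where 15.2% of all tested probes were higher and 14.1% lower. Retinoic acid raised 0 and lowered 1 against untreated, where 18.2% of all tested probes were higher and 17.1% lower. With 5 genes these counts are too few to set the receptors apart from all tested probes.

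**Figure D4:**
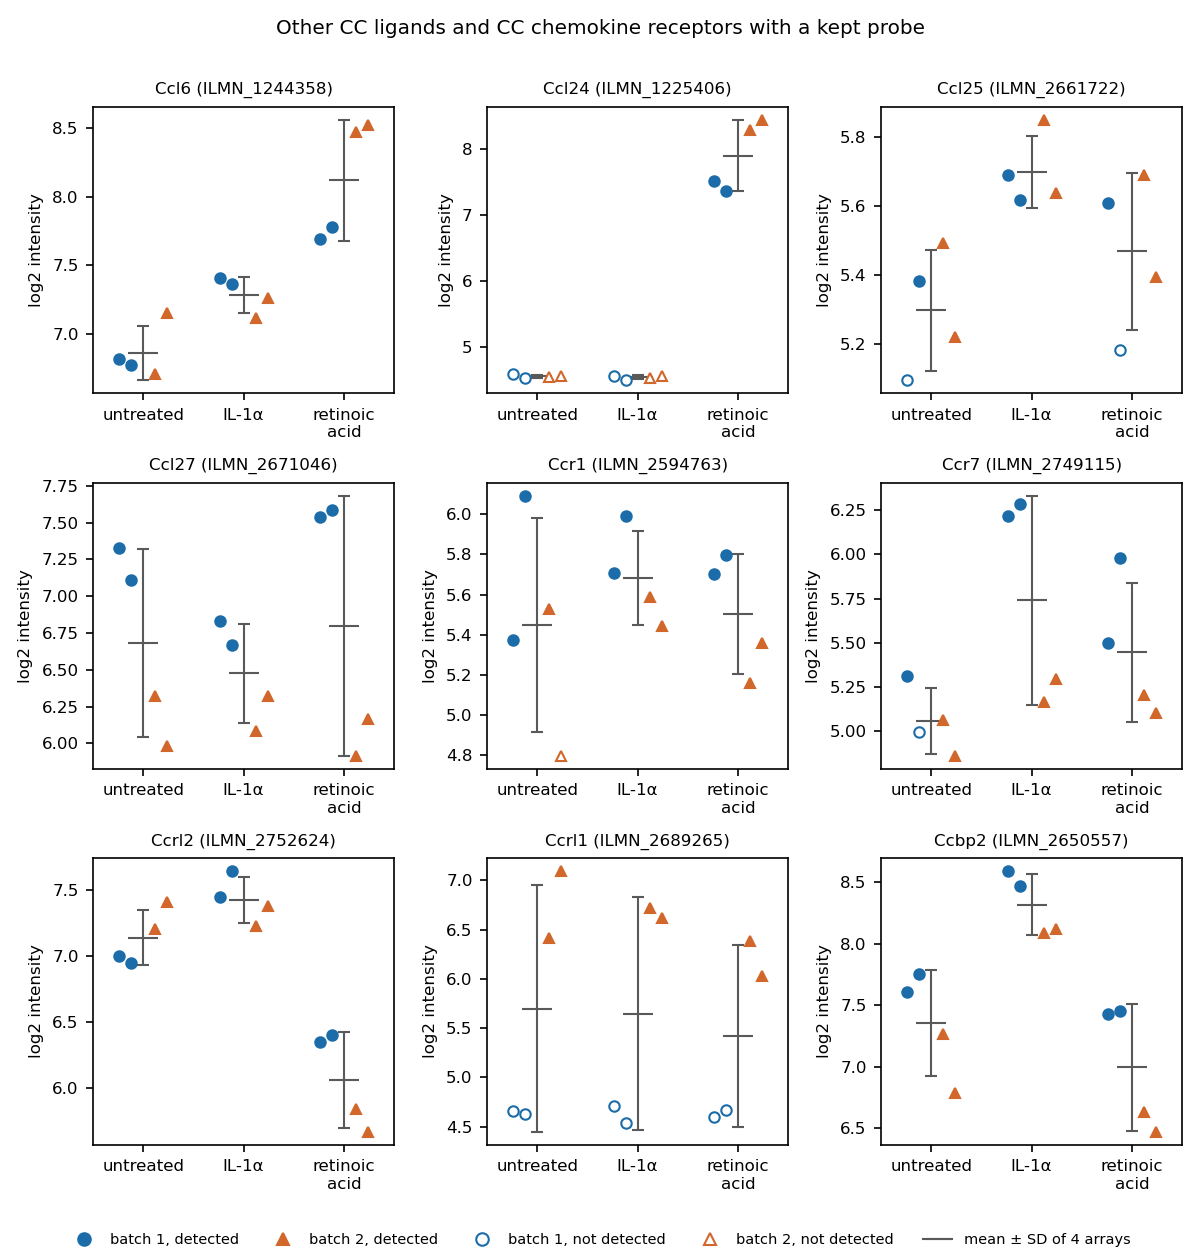
Normalized log2 intensity of the 4 other CC ligands and 5 receptors or scavengers with a tested probe on each of 12 arrays, with the symbols as in the plot of the members by treatment and bars for the mean ± SD of 4 arrays. Ccl24 is detected on the 4 retinoic acid arrays, at 7.37 to 8.44, and Ccbp2 is highest on the 4 IL-1α arrays, and each panel has its own vertical axis, which does not start at 0.

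IL-1 receptor and NF-κB signalling was measured by 17 genes, all of them tested. IL-1α raised 9 of the 17 over untreated cartilage and lowered 0, where 15.2% of all tested probes were higher and 14.1% lower, and retinoic acid raised 5 and lowered 1, where 18.2% were higher and 17.1% lower. Nfkbiz, a nuclear regulator of NF-κB target genes, read 8.91, 8.95, 8.54 and 8.85 untreated and 10.28, 10.38, 10.83 and 10.63 with IL-1α, a rise of 1.72 (limma adjusted p = 1.23e-05). Relb, an NF-κB subunit, rose by 1.45 with IL-1α (limma adjusted p = 1.19e-06) and differed by 0.02 with retinoic acid (limma adjusted p = 0.902). The kinase Irak2, which acts at the IL-1 receptor, rose by 1.60 with IL-1α and by 1.70 with retinoic acid (limma adjusted p = 4.89e-07 and 1.08e-07). Bcl3, a nuclear IκB protein, rose by 1.34 with IL-1α (limma adjusted p = 2.13e-05) and by 0.80 with retinoic acid (limma adjusted p = 7.46e-04), and Tnfaip3, which ends NF-κB signalling, rose by 0.84 and by 1.40 (limma adjusted p = 0.00103 and 8.34e-06). Between the treatments, 7 of the 17 were lower with retinoic acid and 2 were higher, where 15.8% of all tested probes were lower and 15.2% higher. Within the batches, the rise with IL-1α was 1.40 and 2.04 for Nfkbiz, 1.33 and 1.58 for Relb, 1.56 and 1.63 for Irak2, 1.21 and 1.48 for Bcl3 and 0.84 and 0.83 for Tnfaip3. Tnfaip3 was not detected on the untreated arrays of batch 1. Its rise there is a bound, at least 1.34-fold with IL-1α and at least 1.84-fold with retinoic acid. The 9 raised by IL-1α also include Nfkbia and Il1r1. Nfkbia was detected on no batch 1 array, and its change was 0.39 there and 1.46 in batch 2 (limma adjusted p = 0.0187 for the difference). Il1r1 was not detected on the untreated arrays of batch 1, where its rise was at least 1.64-fold. It rose by 0.17 on the log2 scale in batch 2.

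Markers of some cell types moved with the treatments, and which cells made these chemokines was not tested. In RNA of whole explants, fewer cells of a type and less RNA per cell cannot be told apart. Of all tested probes, 15.2% were higher and 14.1% lower with IL-1α and 18.2% and 17.1% with retinoic acid, beside which the counts of each list stand. A summed level is given on the linear normalized scale and is carried by the brightest probes of its list. Of 10 macrophage markers with a probe 9 were tested and Itgam was detected on no array. With IL-1α against untreated, 2 rose, Cd14 by 2.73 and Cd68 by 0.97, and 6 fell, among them C1qa, C1qb and C1qc by 1.49, 1.82 and 2.08, and each of these 5 had the same direction in both batches. With retinoic acid 6 rose and 0 fell. The summed macrophage level was 7641 to 7948 untreated, 8879 to 8944 with IL-1α and 10492 to 10626 with retinoic acid in batch 1, and 6412 to 7150, 5190 to 5634 and 9415 to 9485 in batch 2. The part of macrophages in these results was not tested.

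Of 6 general leukocyte markers 4 were tested, with Ptprc and Fcer1g detected on no array, and IL-1α changed 0 of the 4 and retinoic acid raised 2. Their sum was 2995 to 3023 untreated, 3041 to 3345 with IL-1α and 2490 to 2570 with retinoic acid in batch 1, and 3047 to 3405, 2739 to 2822 and 4274 to 4664 in batch 2, so that retinoic acid was below untreated cartilage in batch 1 and above it in batch 2. The lymphocyte markers Cd3e, Cd3g and Cd3d were detected on no array. Of the tested pair, retinoic acid lowered Nkg7 by 0.93 (limma adjusted p = 0.0185) and raised Cd79b by 1.19 (limma adjusted p = 9.3e-04), and neither was called with IL-1α. Nkg7 was detected on no retinoic acid array and, in untreated cartilage, in batch 1 only, at 6.84 and 6.51. Its fall is therefore a bound from batch 1, and 0.93 is not its size over both batches. The sum of the pair was 227 to 242 untreated, 355 to 363 with IL-1α and 296 to 314 with retinoic acid in batch 1, and 96.8 to 109, 105 to 107 and 203 to 214 in batch 2.

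Of 7 neutrophil markers 0 were called with IL-1α and retinoic acid lowered 5. Their sum was 13712 to 16156 untreated, 17078 to 17625 with IL-1α and 5625 to 5635 with retinoic acid in batch 1, and 9708 to 11566, 16871 to 17750 and 13910 to 14752 in batch 2. The sum with retinoic acid was thus below untreated cartilage in batch 1 and above it in batch 2. So was S100a8, at -1.11 and 0.74 on the log2 scale, and S100a9 likewise, at 0.54 in batch 2. The 5 lowered markers did not reverse. In batch 2 their log2 changes were -0.53 for Ngp, -0.50 for Mpo, -0.32 for Camp and -0.07 for both Ela2 and Ltf. Ela2 and Ltf overlapped with untreated cartilage there. Of 8 tested chondrocyte markers IL-1α lowered 6 and retinoic acid all 8, with sums of 62550 to 63649 untreated, 35394 to 36976 with IL-1α and 10178 to 10522 with retinoic acid in batch 1, and 70218 to 74085, 46528 to 47196 and 15035 to 15446 in batch 2. Of 5 markers of synovium and fibroblasts IL-1α raised 1 and lowered 3 and retinoic acid lowered 5, with sums over both batches of 17300 to 20488 untreated, 16707 to 19066 with IL-1α and 11115 to 12909 with retinoic acid. Of 3 tested osteoclast markers each treatment raised 2, and Calcr was detected on no array, with sums of 1826 to 2196, 3673 to 3723 and 3043 to 3100 in batch 1 and 4274 to 5151, 5316 to 5485 and 6103 to 7456 in batch 2. Of 5 endothelial markers IL-1α lowered 3 and retinoic acid raised 1, with sums over both batches of 1901 to 2350, 922 to 1212 and 2082 to 2458. The mast cell markers Cpa3, Mcpt4 and Cma1 were detected on no array, and Kit fell by 0.90 with IL-1α (limma adjusted p = 0.00456). The part of these cell types in the chemokine results was not tested.

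The likeness of other probes to a member was measured by Pearson's correlation over the 12 arrays after the mean of each batch was removed, and is a description of arrays that share treatments. Among the 18200 tested probes, those most like Ccl7, the member chosen for its highest mean signal, which ranks probes and not amounts of RNA, were Sod3 (0.991), Slc25a33 (0.988), Hp (0.988), Ccl2 (0.987) and Mt2 (0.987). Ccl2 thus ranked 4 among them, with 0.581 where batch means were kept. Of the other members, Ccl5 correlated with Ccl7 at 0.934, Ccl3 at 0.422, Ccl4 at 0.0013 by the brighter probe and Ccl9 at -0.875. The probes most like Ccl5, the member with the largest IL-1α change, were Saa2 (0.999), Dcn (0.994), Saa1 (0.992), LOC630470 (0.991) and Accn3 (0.991). Saa1 and Saa2 encode acute phase serum amyloid proteins and Dcn the matrix proteoglycan decorin.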

How the data were processed

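The authors deposited 1 table of probe intensities on a linear scale for 12 Illumina bead arrays, without background subtraction or normalization. The authors also deposited a detection score per probe and array under a p-value name, and since this score rises with intensity, its complement to 1 served as the detection p. The bead summary software is not given in the sources used here. In R 4.3.3 with limma 3.58.1, neqc estimated the background from the detection p, quantile-normalized the arrays and gave log2 intensities with an offset of 16, from the intensities the authors deposited. Probes detected at p under 0.05 on at least 4 of 12 arrays were kept, which removed 28432 of 46632.

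The limma model (lmFit and eBayes) had the 3 treatments and a 4-level factor that combines batch with replicate number, as in the study's methods, and was fitted to all 18200 kept probes with Benjamini-Hochberg adjustment at 0.05. A model with 6 means of treatment and batch tested whether effects differed between batches. Single probes were also compared by an exact permutation test over 8 arrays. A probe not detected on any array of a group has only a bound there, and its fold compares the brighter mean with a floor, averaged over the arrays of the dim group, that is the larger of the probe's signal and the faintest detected signal of that array. The number of arrays limits the precision. The code was tested on simulated intensities.

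Every probe with a member's symbol is given. Other lists are given by counts, naming every tested receptor and each other ligand or pathway gene with an adjusted p under 0.05 and a log2 change above 1 in size in any comparison, with some further genes named after their values were seen. Members and lists were chosen with earlier results of these data known. Symbols are those of the array, probe sequences and cross-hybridisation between related chemokines were not examined, and promoters and gene order are from RefSeq, GRCm38.p6. Alternatives changed the background correction, normalization, offset, filter, model terms, batches and arrays used.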

Additional observations from a re-analysis of the deposited data

Results flagged for a closer look

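Ccl9 with retinoic acid was flagged because its lowest array, batch 2 replicate 1 at 8.73 on the log2 scale, stood farther from the other 3 arrays than the limit for 4 samples. Of 21 groups of 4 arrays examined, 1 was flagged, and chance flags about 1 in 20.

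The effect differed between the batches, by limma's test of the difference, for Ccl5 in IL-1α against untreated, where batch 2 minus batch 1 was 1.504 (adjusted p = 6.31e-04). It also differed for Ccl5 in retinoic acid against IL-1α, at -1.96 (adjusted p = 2.9e-05). Both rest on arrays where Ccl5 was not above background, so the values are not sizes. For Ccl3 in retinoic acid against untreated the difference was -1.48 (adjusted p = 0.0134). Batch and mouse line cannot be told apart in these differences.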

How the results depend on the processing

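The number of member probes called was 6 for IL-1α against untreated, 5 for retinoic acid against untreated and 4 between the treatments, and it was 5 to 6, 5 and 4 to 5 with each array left out in turn. Without terms for batch and replicate it fell to 3 in both comparisons with untreated cartilage, by the loss of Ccl2 and Ccl4. With no replicate block it was 6, 5 and 5, the added call being Ccl3 between the treatments (-0.69, adjusted p = 0.0394). Deviations of arrays with the same replicate number correlated at 0.003 to 0.062 in batch 1 and at -0.11 to 0.39 in batch 2. These values do not settle whether such arrays share a source. The model keeps the replicate number because the study's methods do. Ccl3 between the treatments was called in 5 alternatives (adjusted p = 0.0057 to 0.04) and without any 1 of 3 arrays, batch 1 replicate 1 of untreated or of retinoic acid or batch 2 replicate 1 of untreated (0.0174 to 0.0237). The IL-1α call of the dimmer Ccl4 probe was lost in 7 of the 12 alternatives that kept this probe, among them batch 2 alone (adjusted p = 0.661) and median scaling (0.122). Where a log2 change above 1 was also required, Ccl4 with IL-1α (0.98), the dimmer Ccl4 probe and Ccl9 between the treatments were no longer called.

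The number of probes whose effect differed between batches, 1 in each comparison, depended more on the settings. For IL-1α against untreated it was 4 without background correction, 3 with median scaling, 2 with normalization within each batch and 3 with an offset of 50, and 1 to 3 with an array left out, 3 without batch 2 replicate 2 and 2 without batch 1 replicate 2 of untreated. For retinoic acid against untreated it was 3 with an offset of 50, 0 without the filter and 2 with an eBayes trend, and 0 to 2 with an array left out, 2 without batch 2 replicate 2 of untreated and 0 without batch 1 replicate 1 of untreated, batch 1 replicate 2 of retinoic acid or batch 2 replicate 1 of retinoic acid. Between the treatments it was 2 with an eBayes trend and 1 to 2 with an array left out, 2 without either batch 2 array of untreated. The cause of these changes was not tested.

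The direction changed for values that were not called. Ccl5 with retinoic acid against untreated, -0.19, was 0.04 in batch 1 alone, and 0.0067 and 0.0165 without batch 2 replicate 1 or 2 of retinoic acid, with -0.40 as the lowest value with an array left out. The dimmer Ccl4 probe between the treatments, 0.18, was -0.053 in batch 1 alone. Median scaling moved the share of higher calls between the treatments over all tested probes from 49.0% to 60.2%. Signals near the background, those of Ccl5, Ccl11, Ccl20 and the dimmer Ccl4 probe, limit what can be said of their size.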
